A study of Mus musculus with 10 samples.

Results

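Gene expression in embryoid bodies (EBs) of day 10 was compared between a Smyd5 knockdown library and its control, and 10576 of the 22878 genes listed reached an RPKM (the read count per length of transcript and per depth of library) of at least 3 in either library and are described here. The comparison used 2 of the 10 libraries of the series. Both came from the R1 mouse ES cell line, infected with lentiviral particles encoding a short hairpin RNA. The control hairpin, shLuc, targets luciferase and the other, shSmyd5, targets Smyd5. Per the labels, ES cells for RNA-Seq were moved off irradiated feeder fibroblasts onto gelatin, with the GSK3 inhibitor CHIR9901. The study's methods name that step for ChIP, and neither source says that it preceded EB formation. EBs are aggregates that form in low-attachment dishes once LIF is left out, and their polyA RNA was taken at day 10. The study made 3 hairpins against Smyd5 and the labels do not say which was used here. There was 1 library per condition, so no day 10 difference has a replicate check.

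SMYD5 is a SET and MYND domain methyltransferase studied for its role in the trimethylation of lysine 20 of histone H4, a mark of silent heterochromatin. In an EB, the outer cells become primitive endoderm, which lays down a basement membrane and gives rise to the visceral and parietal endoderm of the yolk sac. The inner cells form ectoderm, including neural progenitors, and mesoderm, including blood, endothelium and heart muscle. Canonical Wnt signaling, which R-spondins enhance by protecting Frizzled receptors from turnover, patterns the dorsal side of the neural tube, where Zic and Wnt genes are expressed together.

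Reads in genes numbered 22131320 for shLuc and 11587953 for shSmyd5, with 4987 and 5843 genes left at 0 reads. Smyd5 itself, on chromosome 6 from 85381983 to 85396429 (all gene coordinates are on mm9), stood at an RPKM of 24.95 with shLuc against 9.14 with shSmyd5, 2.71-fold lower in the knockdown (log2 fold -1.44, 95% interval -1.62 to -1.28). Folds are shSmyd5 over shLuc, on RPKM plus 0.1, and each interval is the exact binomial one for the read counts of the pair. Such intervals hold counting error alone and compare these 2 libraries, not the conditions. The EB label was checked against markers. The summed RPKM of 25 pluripotency genes was 404 in shLuc and 494 in shSmyd5 EBs, against 5173 in shLuc ES cells, and Afp, the alpha-fetoprotein of visceral endoderm, stood at 922 and 626. Smyd5 was thus lower in the library labelled as its knockdown. At day 6 it had 15.4 and 0.49, and at day 14 13.1 and 6.88.

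Of the 10576 genes, 333 (3.15%) were at least 2-fold higher and 689 (6.51%) at least 2-fold lower in shSmyd5 EBs. At 1.5-fold the counts were 1058 higher (10.0%) and 1743 lower (16.5%), and at 8-fold 16 higher and 53 lower. Counts of list members at 1.5-fold given below are to be read against these 1.5-fold shares. The interval lay wholly beyond 2-fold for 236 of the higher and 397 of the lower genes. The median log2 fold of all was -0.05, and 735 genes reached an RPKM of 3 in shLuc only, 325 in shSmyd5 only. The split of higher against lower genes moved with the scaling and with the minimum. It was 422 to 555 with edgeR TMM factors, 422 to 553 with DESeq2 size factors and, with the scaling as deposited, 200 to 264 where either library reached an RPKM of 10. Folds moved with GC content too. Over the 10164 genes whose GC content was known, the rank correlation with fold was -0.386 (genes are no independent replicates), and the median GC content was 49.7% for the 2-fold higher, 56.4% for the 2-fold lower and 50.5% for all genes. After the trend on GC content and transcript length was taken out, 312 were 2-fold higher and 436 lower. Values treated so are called GC-freed below.

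**Figure D1:**
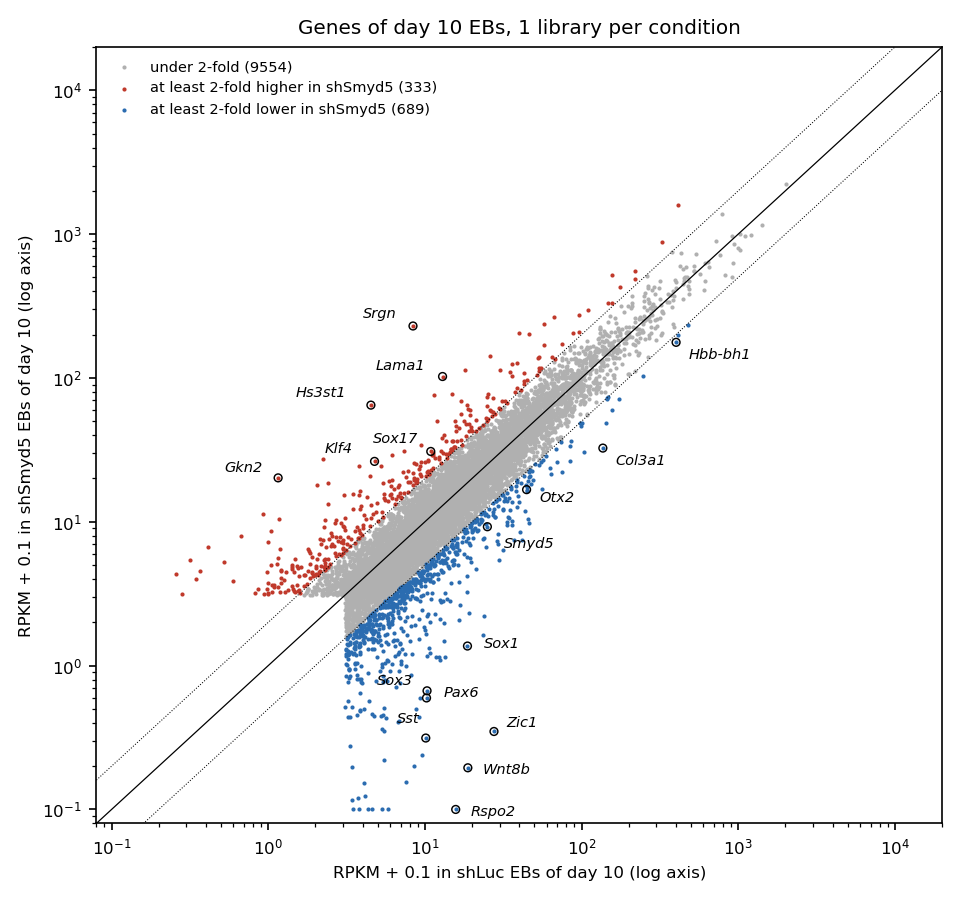
RPKM plus 0.1 of the 10576 genes in shLuc (x axis) and shSmyd5 EBs of day 10 (y axis), both on log axes, with 1 point per gene, a solid line at equal levels and dotted lines at 2-fold. The 333 red genes are at least 2-fold higher and the 689 blue genes at least 2-fold lower in shSmyd5, and Rspo2, Wnt8b and Zic1 lie at the bottom, with levels over 15 in shLuc and under 0.3 in shSmyd5.

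The 3 lowest genes of day 10 among those with an RPKM of at least 10 were Rspo2, Wnt8b and Zic1. Rspo2, which encodes a secreted enhancer of Wnt signaling (chromosome 15 from 42852357 to 43002364), had 15.6 from 1590 reads with shLuc and 0 reads with shSmyd5. With 3 reads as the limit that a count of 0 allows, it was at least 272-fold lower. The exact binomial interval, used for the other genes, ended at a log2 fold of -7.79, which is a weaker bound. Wnt8b, a Wnt ligand of the dorsal forebrain (chromosome 19 from 44567962 to 44588763), had 18.7 from 1923 reads and 0.09 from 5 reads (log2 fold -6.59, -9.25 to -6.40). Zic1, a zinc finger factor of the dorsal neural tube (chromosome 9 from 91252896 to 91260648), had 27.5 from 2807 reads and 0.25 from 13 reads (-6.31, -7.70 to -6.01). Its neighbour Zic4 (chromosome 9 from 91257251 to 91284186) had 3.32 from 414 reads and 0.02 from 1 read (-4.89). The gene models of Zic1 and Zic4 overlap and the reads carry no strand, so reads from the shared stretch cannot be assigned to either. Rspo2, Wnt8b and Zic1 were high in shLuc, Zic4 was just over the minimum there, and all 4 were near 0 in shSmyd5.

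The promoters of 3 of these genes are shown from RefSeq, 250 bases before to 50 after the start (build GRCm38.p6), to show the sequence at the starts of genes near 0 in shSmyd5 EBs. Rspo2 has no entry in the table. Capitals mark matches, on either strand, to the letters AGATAA of the GATA motif, to the letters CTTTGA of the TCF/LEF motif and to the letters ACAAAG of the SOX motif. Zic1 lies on the minus strand and Zic4 on the plus strand. The Zic1 promoter has 31 CpG sites and the Wnt8b promoter 6.
Zic1 promoter, chr9:91365719-91366018 (GRCm38.p6, minus strand): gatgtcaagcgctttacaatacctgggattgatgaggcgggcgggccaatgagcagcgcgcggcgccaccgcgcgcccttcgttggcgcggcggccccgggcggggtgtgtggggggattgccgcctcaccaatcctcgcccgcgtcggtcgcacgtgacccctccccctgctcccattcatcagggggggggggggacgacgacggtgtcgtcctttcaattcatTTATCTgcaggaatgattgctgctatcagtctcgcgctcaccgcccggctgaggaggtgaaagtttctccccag
Zic4 promoter, chr9:91368722-91369021 (GRCm38.p6, plus strand): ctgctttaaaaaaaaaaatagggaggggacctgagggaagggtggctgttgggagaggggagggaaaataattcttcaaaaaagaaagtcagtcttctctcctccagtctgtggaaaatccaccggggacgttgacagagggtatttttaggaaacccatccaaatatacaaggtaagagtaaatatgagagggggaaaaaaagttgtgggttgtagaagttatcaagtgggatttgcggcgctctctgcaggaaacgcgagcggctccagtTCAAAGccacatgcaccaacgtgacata
Wnt8b promoter, chr19:44493222-44493521 (GRCm38.p6, plus strand): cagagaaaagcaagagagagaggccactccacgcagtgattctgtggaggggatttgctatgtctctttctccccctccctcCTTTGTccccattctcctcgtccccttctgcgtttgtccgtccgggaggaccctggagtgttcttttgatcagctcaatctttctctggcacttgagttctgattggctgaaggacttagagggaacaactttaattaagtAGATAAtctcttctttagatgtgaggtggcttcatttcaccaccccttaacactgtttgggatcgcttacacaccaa

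Regulators of neural progenitors were lower as a group. Of 36 listed, 22 reached an RPKM of 3, and all 22 were at least 2-fold lower, with a median log2 fold of -3.22 (GC-freed -3.12) against -0.05 over all genes. Of these, 19 reached it in shLuc only, which fixes their direction. Without the minimum, 35 of the 36 were at least 1.5-fold lower, with a median of -2.59. The 3 that reached it in both libraries were Sox2, Otx2 and Irx3. Sox2, a factor of both pluripotent and neural cells, had 62.8 and 23.5 (-1.41, -1.52 to -1.31), and Otx2, a factor of the forebrain and midbrain (chromosome 14 from 49277354 to 49287319), had 44.5 and 16.6 (-1.41, -1.57 to -1.27). The genes that define neural progenitors were low in shSmyd5. Sox1, the earliest marker of the neural plate, had 18.6 and 1.27 (-3.77, -4.21 to -3.55). Pax6, a homeobox factor of the eye and forebrain (chromosome 2 from 105509053 to 105543317), had 10.2 and 0.57 (-3.95, -4.81 to -3.60). Sox3, the X-linked relative of Sox1 and Sox2, had 10.1 and 0.50 (-4.10), and Fabp7, the fatty acid carrier of radial glia, had 9.05 and 0.34 (-4.39). Otx1 and Lhx2, forebrain homeobox factors, stood at -3.42 and -3.15. Fam181b, whose role is less known, had 23.5 and 1.53 (-3.86). Irx3, at -1.11, was the smallest difference and was -0.43 once GC-freed. In bulk samples, fewer cells of a type and less RNA per cell cannot be told apart. The summed RPKM of the 36 neural genes was 310 in shLuc and 62.0 in shSmyd5 EBs, and beside it that of 15 genes of the basement membrane and parietal endoderm was 932 and 3487. The neural sum was 331 in shLuc ES cells, so it is not a measure of neural cells alone. No gene of the neural list was at 0 reads in shLuc EBs of day 10 and 1 was in shSmyd5 EBs. The part of a change in cell types in these values was not tested.

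Beside Zic1 and Zic4, the neighbours Zic2 and Zic5 were lower. Zic2 had 29.7 and 5.35 (-2.45, -2.66 to -2.28) and Zic5 had 3.97 and 0.40 (-3.02). Genes of neurons followed. Of 28 listed, 9 reached an RPKM of 3, of which 7 were at least 1.5-fold lower and 1 higher (median -0.89), and without the minimum 23 were lower and 1 higher. Tubb3, the tubulin of young neurons (chromosome 8 from 125935324 to 125945915), had 19.1 and 2.23 (-3.04, -3.50 to -2.72). Crmp1 and Dpysl3, which act in axon guidance, stood at -2.13 and -1.17, and the growth cone protein Gap43 at -1.11. Nefl, a neurofilament and the exception, named after its values were seen, had 7.22 and 12.7 (0.81). Among hormones, Sst, the gene of somatostatin, had 10.0 from 183 reads and 0.21 from 2 reads (-5.01, -8.61 to -3.68), and Trh, that of thyrotropin-releasing hormone, had 32.4 and 16.6 (-0.96). Cntnap2, an adhesion protein of axons, stood at -3.15 and Metrn, a secreted protein of neural progenitors, at -3.44.

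**Figure D2:**
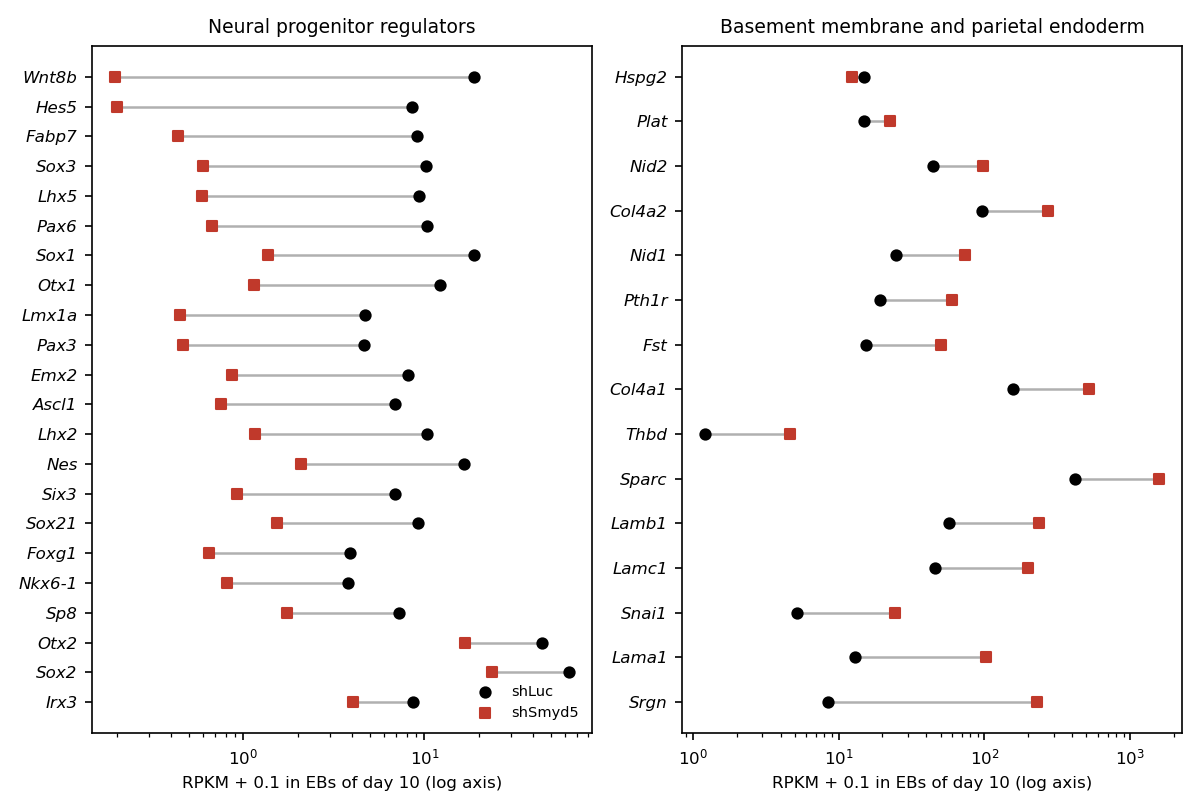
RPKM plus 0.1 in EBs of day 10 (x axis, log) of the 22 neural progenitor regulators (left) and the 15 genes of basement membrane and parietal endoderm (right), with a black circle for shLuc, a red square for shSmyd5 and a grey line between them. All 22 neural genes lie lower in shSmyd5, and 14 of the 15 basement membrane genes lie higher, Hspg2 being the exception.

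Signals and their receptors are given by role. Of the 19 Wnt ligands, 7 reached an RPKM of 3, with 6 at least 1.5-fold lower and 1 higher, and without the minimum 10 were lower and 1 higher. Of the 7, 5 reached it in shLuc only and 1 in shSmyd5 only, which fixes their direction. Wnt1, which patterns the midbrain (chromosome 15 from 98620288 to 98624268), had 11.8 and 1.05 (-3.36, -3.98 to -3.02), and Wnt7b, a ligand of the forebrain, had 13.3 and 1.04 (-3.55, -4.09 to -3.29). Wnt5b had 3.57 and 0.70 (-2.20). The higher ligand was Wnt11, named after its values were seen, a ligand of noncanonical signaling, with 2.03 and 7.53 (1.84, 1.62 to 2.17). R-spondins, the enhancers of Wnt signaling, were lower in all 3 that reached the minimum. Of these, 2 reached it in shLuc only, which fixes their direction, and without the minimum 3 of 4 were at least 1.5-fold lower and 0 higher. Rspo1 had 10.6 and 1.22 (-3.01, -3.65 to -2.62) and Rspo3 had 41.7 and 7.32 (-2.49, -2.69 to -2.33), so the summed RPKM of the 4 R-spondins was 68.0 in shLuc, the highest of the 10 libraries, and 8.57 in shSmyd5. Receptors were less uniform. Of 14 Wnt and R-spondin receptors 6 were at least 1.5-fold lower and 0 higher (median -0.23). Of the 14, 4 reached the minimum in shLuc only, and without the minimum 9 of 20 were lower and 0 higher. Fzd10 and Fzd3 led with 7.59 and 1.52 (-2.25) and with 12.4 and 2.77 (-2.12). The secreted inhibitors Sfrp2 and Sfrp1, which bind Wnt ligands, had 31.5 and 6.24 (-2.32) and 35.8 and 9.95 (-1.84).

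Genes that Wnt signaling induces in many tissues were lower in 8 of the 11 that reached the minimum and higher in 0 (median -1.17, GC-freed -0.90). Axin2, the feedback inhibitor of the pathway (chromosome 11 from 108781663 to 108812097), had 11.1 and 3.73 (-1.55, -1.78 to -1.38), and Ccnd1, cyclin D1, had 34.1 and 10.5 (-1.69, -1.83 to -1.58). Sp8 and Sp5, zinc finger factors, stood at -2.05 and -1.49. In the Notch pathway, which keeps neural progenitors from differentiating, 8 of 13 were lower and 0 higher (median -1.18). Hes5, the Notch-induced repressor of neural progenitors, had 8.41 from 326 reads and 0.10 from 2 reads (-5.41, -9.44 to -4.52). Lfng and Mfng, which modify Notch, stood at -2.42 and -2.37 and the ligand Jag1 at -1.32. In the Hedgehog pathway 7 of 10 were lower and 0 higher (median -1.05), led by the coreceptor Gas1 with 24.3 and 6.58 (-1.87, -2.06 to -1.71), the coreceptor Boc at -1.31 and the transcription factors Gli3 and Gli1 at -1.28 and -1.25. Of 5 Fgf ligands 3 were lower, among them Fgf15 of the neural tube with 38.7 and 12.5 (-1.62) and Fgf8 with 8.30 and 3.63 (-1.17), and Fgf10 was higher at 0.65. BMP ligands and inhibitors had no common direction, with 2 of 14 higher and 4 lower (median -0.15). Of these members, 3 Wnt targets, 5 Notch, 2 Hedgehog and 1 Fgf gene reached the minimum in shLuc only, which fixes their direction. Without the minimum, 13 of 18 Wnt targets were at least 1.5-fold lower and 1 higher. In the same way 11 of 18 Notch genes were lower and 0 higher, 9 of 14 Hedgehog genes lower and 1 higher, and 7 of 16 Fgf ligands lower and 3 higher. The lists share genes, Wnt8b and Hes5 among them, so their counts are not independent.

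Rspo2, Wnt8b and Zic1, the 3 lowest genes of day 10 named above, rose between day 6 and day 10 in the control. At day 6 Zic1 stood at 0.17 with shLuc and 0.61 with shSmyd5, at day 10 27.5 and 0.25, and at day 14 10.8 and 0.50. Rspo2 had 0.02 and 0 at day 6, and 5.47 and 0.245 at day 14. Wnt8b had 0.04 and 0 at day 6, and 2.66 and 0.18 at day 14. In shLuc all 3 were highest at day 10, and in shSmyd5 none passed 1 at any of these times. Pax6 differed from the others: it was already present at day 6 in shLuc, with 6.72 against 0.31, and had 4.31 and 0.33 at day 14. Sox1 likewise had 4.33 and 0.76 at day 6 and 6.04 and 0.38 at day 14. Sox3 too was present at day 6, with 3.78 and 2.14, and had 1.52 and 0.28 at day 14. The 22 neural regulators were kept by their day 10 levels, 19 of them in shLuc only, which fixes the direction of those 19 at day 10. The days are therefore not on equal terms. The median log2 fold of the 22 was -0.32 at day 6, -3.22 at day 10 and -1.83 at day 14. At day 6 they had no common direction, with 7 at least 1.5-fold higher and 8 lower. At day 14, 0 were higher and 20 lower. Each time has its own shLuc library.

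**Figure D3:**
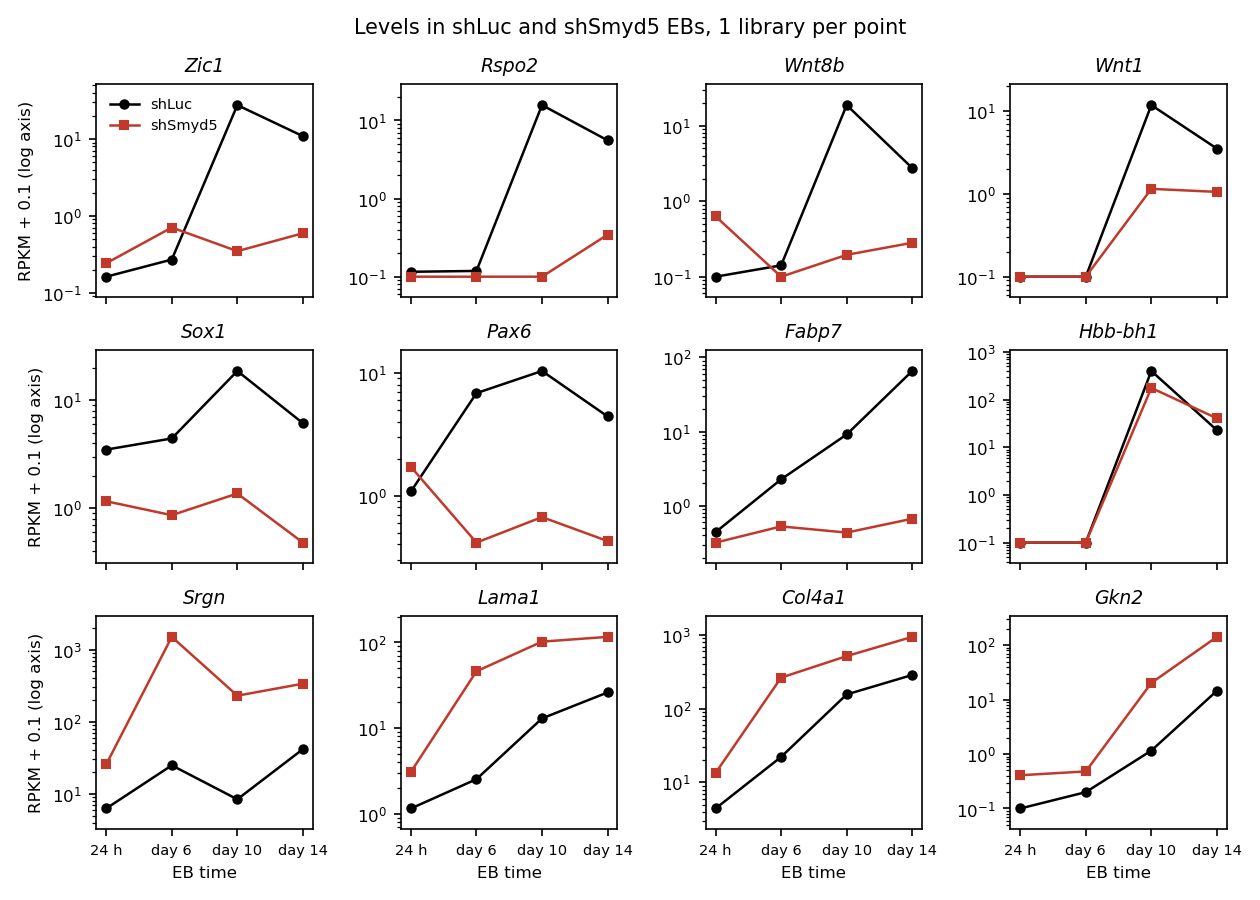
RPKM plus 0.1 (y axis, log, scaled separately for each gene) of 12 genes in shLuc (black circles) and shSmyd5 EBs (red squares) at 24 h, day 6, day 10 and day 14 (x axis), with 1 library per point. Zic1, Rspo2, Wnt8b and Wnt1 climb in shLuc between day 6 and day 10 and stay near or below 1 in shSmyd5, whereas Srgn, Lama1, Col4a1 and Gkn2 lie above shLuc in shSmyd5 at all 4 times.

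The 15 highest genes of day 10 encode matrix and secreted proteins, receptors, enzymes and transcription factors. Srgn, the proteoglycan serglycin (chromosome 10 from 61956581 to 61990199), had 8.29 from 237 reads with shLuc and 229.7 from 3366 reads with shSmyd5 (log2 fold 4.77, 4.60 to 4.99). Gkn2, a secreted protein of the stomach (chromosome 6 from 87323359 to 87329488), had 1.06 from 25 reads and 20.1 from 244 reads (4.13, 3.65 to 4.91). Hs3st1, a heparan sulfate sulfotransferase, had 4.42 and 64.6 (3.84, 3.67 to 4.08), and Spock1, an extracellular proteoglycan, had 2.13 and 27.4 (3.62). Receptors were among them too, with Cmklr1, the chemerin receptor, at 0.83 and 11.2 (3.60) and Lpar3, a receptor of lysophosphatidic acid, at 1.08 and 10.4 (3.15). F3, the tissue factor that starts clotting, had 11.3 and 75.5 (2.74), and Tinagl1, a basement membrane protein, had 17.9 and 113 (2.65). Klf4, a pluripotency factor that epithelia also use, had 4.67 and 26.2 (2.46), and Dnmt3l, a partner of the de novo DNA methyltransferases, had 2.30 and 13.1 (2.46). Fxyd3, Rap1gap, Prss35 and Fabp3 completed the 15 highest, with Lama1, at log2 folds from 2.45 to 3.14 for these 4.

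A promoter of Srgn and that of Gkn2 are shown, these being the 2 highest genes among those with an RPKM of at least 10. Capitals mark, on either strand, the letters AGATAA of the GATA motif as above, the letters TATAAA of the TATA box and the letters CAGCTG of an E-box. Srgn has 2 promoters in the table. The one shown and that of Gkn2 hold the TATA box letters, and the other Srgn promoter (chr10:62507708-62508007) matches none of the 5 motifs. The TATA box letters were in 12.4% of the 315 promoters of 2-fold higher genes, against 7.75% of 555 promoters of 2-fold lower genes, 6.83% of those of all 10576 genes and 13.6% of every promoter in the table. A match is a description and not a site.
Srgn promoter, chr10:62527396-62527695 (GRCm38.p6, minus strand): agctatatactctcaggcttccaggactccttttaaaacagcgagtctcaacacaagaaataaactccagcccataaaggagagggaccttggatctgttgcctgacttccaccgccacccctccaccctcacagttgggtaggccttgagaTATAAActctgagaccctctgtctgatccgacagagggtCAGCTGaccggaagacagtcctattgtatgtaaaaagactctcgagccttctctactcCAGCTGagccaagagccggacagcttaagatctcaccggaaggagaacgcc
Gkn2 promoter, chr6:87373115-87373414 (GRCm38.p6, plus strand): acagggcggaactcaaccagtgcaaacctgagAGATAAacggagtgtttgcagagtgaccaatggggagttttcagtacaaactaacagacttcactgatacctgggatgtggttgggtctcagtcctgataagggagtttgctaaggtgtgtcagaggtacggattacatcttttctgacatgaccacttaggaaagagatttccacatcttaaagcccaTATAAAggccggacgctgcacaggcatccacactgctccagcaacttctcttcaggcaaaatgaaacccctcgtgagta
The E-box letters were held by 20.6% of the promoters of higher genes and 14.6% of those of lower genes, against 14.5% for all. In the same order, the TCF/LEF letters were held by 11.1%, 11.5% and 11.3%, the SOX letters by 15.9%, 16.6% and 13.4% and the GATA letters by 7.30%, 5.23% and 5.92%. Over every promoter of the reference, 16.0% held the TCF/LEF, 18.7% the SOX, 11.2% the GATA and 16.3% the E-box letters. Promoters were had for 230 of the 333 higher and 442 of the 689 lower genes.

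Of the 15 genes of basement membrane and parietal endoderm, 14 reached an RPKM of 3 in both libraries, and 13 were at least 2-fold higher (median log2 fold 1.73, GC-freed 2.04). The laminin chains were higher in all 3 listed. Lama1, the alpha 1 chain (chromosome 17 from 68046605 to 68171985), had 12.9 and 102 (2.98, 2.94 to 3.04), Lamc1, the gamma 1 chain, had 46.0 and 200.4 (2.12, 2.09 to 2.16), and Lamb1, the beta 1 chain, had 57.1 and 238 (2.06, 2.02 to 2.09). The type IV collagen chains Col4a1 and Col4a2 had 156 and 519 (1.73) and 96.6 and 272 (1.50), and Sparc, a matrix protein abundant in parietal endoderm, had 415 and 1582 (1.93). Nid1 and Nid2, which link laminin to collagen, stood at 1.56 and 1.12. Snai1, a repressor that drives the transition from epithelium to mesenchyme (chromosome 2 from 167363695 to 167368314), had 5.11 and 24.3 (2.22, 2.03 to 2.47). The exceptions were Plat, the tissue plasminogen activator, with 14.9 and 22.4 (0.58), and Hspg2, the proteoglycan perlecan, with 14.9 and 12.3 (-0.28), which was 0.48 once GC-freed.

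Endoderm transcription factors were at least 2-fold higher in 9 of the 16 that reached the minimum and at least 1.5-fold lower in 2 (median 1.05). Gata4 (chromosome 14 from 63817759 to 63890529), a zinc finger factor of early endoderm, had 35.8 and 102 (1.51, 1.45 to 1.57). Sox17 and Sox7, related HMG box factors, had 10.8 and 30.7 (1.50, 1.39 to 1.62) and 5.96 and 17.7 (1.55, 1.42 to 1.72). Foxq1 had 6.03 and 19.3 (1.66) and Gata6 21.9 and 44.8 (1.03). The 2 lower factors, named after their values were seen, were Nr2f2 at -0.99 and Cdx2, a factor of hindgut and trophectoderm, at -0.89. Genes of gut and stomach epithelium were higher in 6 of 8 and lower in 0, though 5 of the 8 reached the minimum in shSmyd5 only. Without the minimum 8 of 20 were higher and 2 lower, with a median of 0.18. Beside Gkn2, these were led by Gkn1, with 0.27 and 4.46 (3.63), the water channel Aqp8, with 7.25 and 30.9 (2.08), and the mucin Muc13, with 3.00 and 10.6 (1.79). The secreted proteins of yolk sac and liver differed less, with 7 of 18 higher and 2 lower (median 0.50). Dab2, an endocytic adaptor of visceral endoderm, had 147 and 333 (1.18), and the coagulation factor F2 had 7.02 and 13.6 (0.94). Trf, transferrin, was lower with 74.7 and 22.0 (-1.76), and Afp stood at -0.56. A list of 10 genes that earlier results of these libraries had named as high in later knockdown EBs had 9 of 9 higher (median 3.63), which is not independent evidence of its direction.

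**Figure D4:**
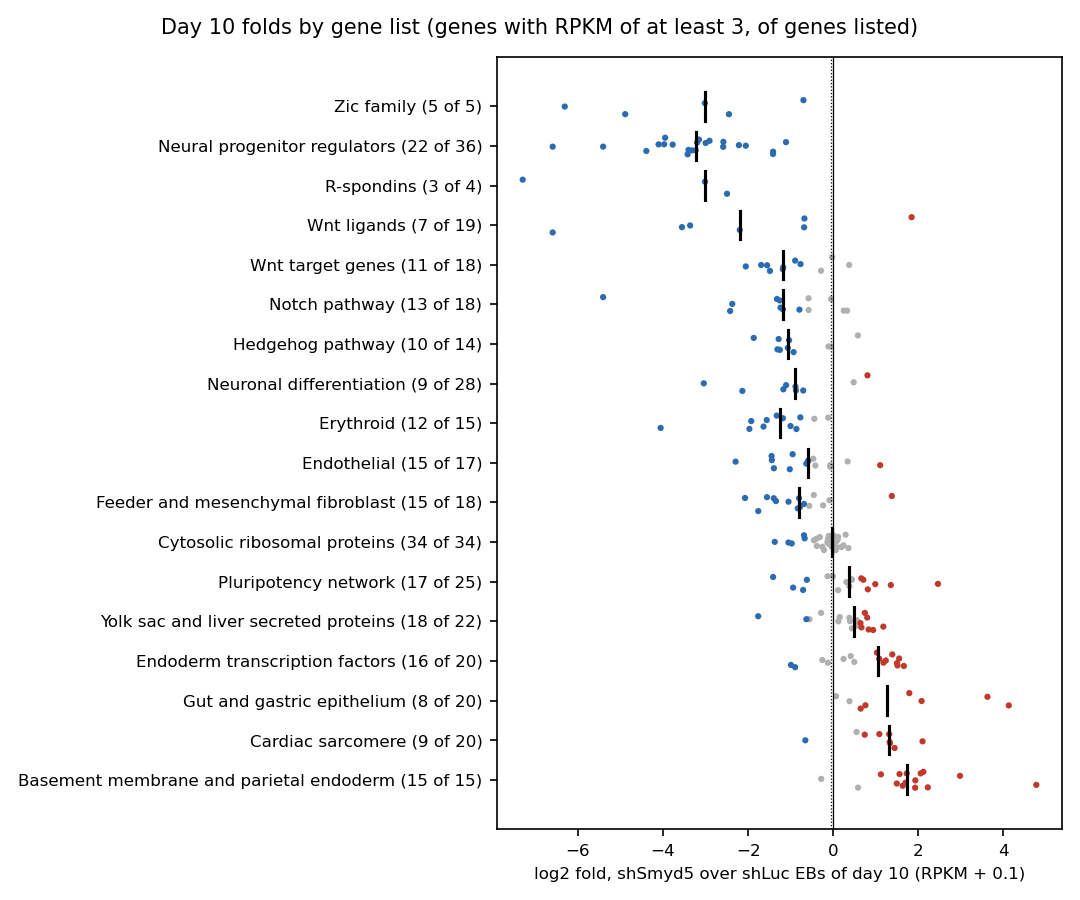
Log2 fold of shSmyd5 over shLuc EBs of day 10 (x axis) for the genes of 18 lists (y axis, with the number that reached an RPKM of 3 of the number listed), with 1 point per gene, red at least 1.5-fold higher, blue at least 1.5-fold lower and grey between. Black bars mark list medians, from -3.22 (neural progenitor regulators) to 1.73 (basement membrane and parietal endoderm), the solid line marks 0 and the dotted line the median of all genes, -0.05.

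Among mesodermal genes, more of heart muscle were higher than lower, and more of the erythroid list were lower than higher. Of 9 genes of the cardiac sarcomere, 7 were at least 1.5-fold higher and 1 lower (median 1.32), and without the minimum 12 of 20 were higher and 3 lower. Myl3, a myosin light chain (chromosome 9 from 110666150 to 110672308), had 3.73 and 16.3 (2.10, 1.79 to 2.48), the atrial light chain Myl7 had 4.84 and 13.3 (1.44), the heavy chain Myh7 1.32 and 3.48 (1.34) and troponin T Tnnt2 2.88 and 7.39 (1.33). These levels were low in both libraries. The 9 genes were kept by their day 10 levels, 2 of them in shSmyd5 only and 1 in shLuc only, so the days are not on equal terms. At day 14 the median of the same 9 genes was 0.07 and at day 6 -0.48. The cardiac factors Gata4 and Gata6 are also endoderm factors, and Tbx5, a T-box factor of the heart, had 0.90 and 0.75 (-0.24), under the minimum. Erythroid genes were at least 1.5-fold lower in 10 of 12 and higher in 0 (median -1.25, GC-freed -1.35), 7 of the 12 having reached the minimum in shLuc only, and lower in 13 of 15 without the minimum. The embryonic globin Hbb-bh1 (chromosome 7 from 110990150 to 110991678) had 401 and 177 (-1.18, -1.26 to -1.11), and the erythroid regulators Klf1 and Nfe2 stood at -1.97 and -1.64. Hbb-b1 had 127 and 3 reads (-4.05) and the related entry Beta-s 240 and 10 reads (-3.50). At day 14 the median of the same 12 erythroid genes, kept by their day 10 levels, was 0.72, on the other side of 0. That difference between days was not tested. The globins are near-identical in pairs: Hba-a1 and Hba-a2 each had about the same reads, 2505 and 2507 in shLuc, so values of single globin genes are uncertain. Of 4 genes of blood progenitors, platelets and macrophages that reached the minimum, 3 were higher and 1 lower (median 0.80), and without the minimum 5 of 19 were higher and 7 lower. Cd68, a lysosomal protein of macrophages, had 3.71 and 15.2 (2.01).

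Endothelial genes were lower in 9 of 15 and higher in 1 (median -0.59), with Cldn5, a tight junction protein, at 6.82 and 1.31 (-2.29) and the receptor Tie1 at 7.33 and 2.62 (-1.45). Of the 15, 4 reached the minimum in shLuc only, and without the minimum 10 of 17 were lower and 1 higher. The higher gene, named after its values were seen, was the receptor Flt1 with 10.4 and 22.4 (1.10). Mesenchymal genes, which feeder fibroblasts share, were lower in 10 of 15 and higher in 1 (median -0.80). Collagen genes of fibroblasts led, with Col3a1 at 137 and 32.4 (-2.07, -2.13 to -2.02), Col1a2 at 103 and 30.5 (-1.76) and Col1a1 at 144 and 48.8 (-1.56). The higher gene was Pdgfra, a receptor that primitive endoderm also carries, with 18.2 and 47.4 (1.38), named after its values were seen. The summed RPKM of the 18 mesenchymal genes was 1277 in shLuc and 670 in shSmyd5 EBs, and 94.4 to 4553 over the 10 libraries. Col1a1, Col1a2 and Col3a1 were thus abundant in both libraries. The part of feeder cells in these values was not tested.

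Genes of the pluripotency network had no common direction, with 6 of 17 at least 1.5-fold higher and 4 lower (median 0.38). Over all genes the shares were 10.0% higher and 16.5% lower. Pou5f1, which encodes OCT4, had 26.4 and 17.1 (-0.62, -0.80 to -0.45), and Nanog had 11.5 and 10.4 (-0.13, -0.37 to 0.10), an interval that includes no difference. Beside Klf4, Klf5 was higher, with 10.4 and 26.6 (1.36), as was L1td1, with 10.7 and 21.4 (0.99). Both Klf factors are also epithelial. Genes of primed epiblast were lower in 3 of 8 and higher in 0 (median -0.21), the 3 being Sox3, Otx2 and Lef1.

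Among genes that reached an RPKM of 3 at both times, those that differed at day 10 were often different at day 6 and day 14 in the same direction. Of the 689 genes 2-fold lower at day 10, 319 reached it at day 6 and 458 at day 14, and of the 333 higher ones 246 and 316. The rest, with Zic1, Rspo2 and Wnt8b among them at day 6, are left out of these shares. Of 246 genes that were 2-fold higher at day 10 and reached an RPKM of 3 at day 6 too, 155 were 2-fold higher at day 6. That is 63.0% of them and 22.0% of the genes 2-fold higher at day 6, against 7.89% of all 8947 genes measured at both times. At day 14 the number was 154 of 316, or 48.7% of them and 51.2% of the day 14 genes, against 3.03% of all. Of the 2-fold lower genes, 179 of 319 (56.1%) were lower at day 6, against 18.5% of all, and 164 of 458 (35.8%) at day 14, against 2.97%. At 24 h the shares were 28.9% of the higher and 7.73% of the lower genes, against 12.0% and 3.40% of all, and 34.1% of the lower genes were 2-fold higher at 24 h. Opposite directions were less frequent later than over all genes. At day 6 they were 4 of the 246 (1.63%, against 18.5% of all) and 13 of the 319 (4.08%, against 7.89%). At day 14 they were 0 of the 316 (against 2.97% of all) and 5 of the 458 (1.09%, against 3.03%).

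**Figure D5:**
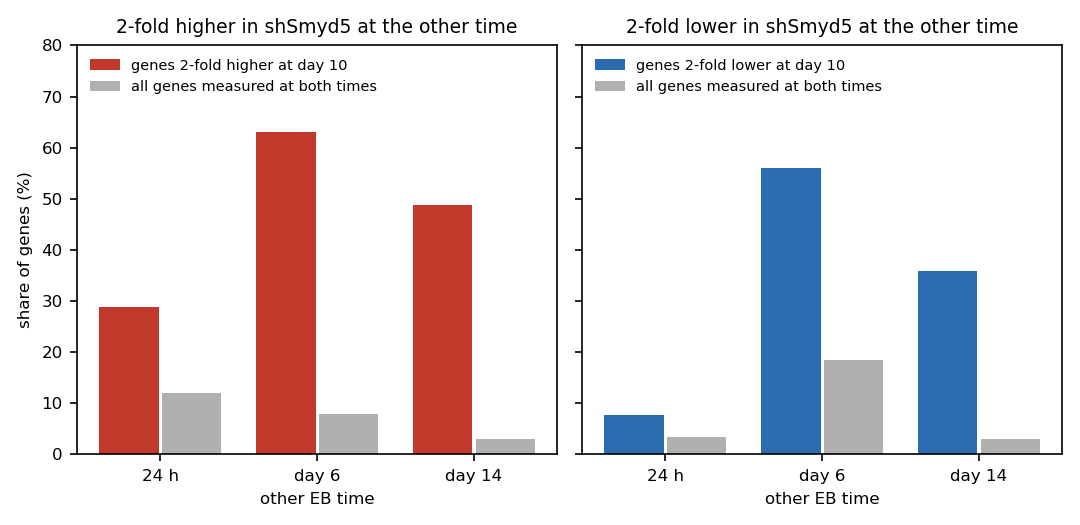
Share of genes (y axis, percent, from 0) that were 2-fold higher (left) or lower (right) in shSmyd5 at 24 h, day 6 or day 14 (x axis). Only genes with an RPKM of at least 3 at both times are counted, those that were so at day 10 in colour and all of them in grey. The coloured bar is above the grey one at each time, most at day 6, with 63.0% against 7.89% for the higher genes.

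A test over EBs of day 6, day 10 and day 14 used the 3 times as replicates of the knockdown difference, with the time as a block. With the edgeR quasi-likelihood test and a Benjamini-Hochberg adjusted p of 0.05, 63 of 12378 genes (0.509%) rose and 34 (0.275%) fell in shSmyd5 EBs, and all 97 were at least 2-fold different in the same direction at day 10, 90 of them with an RPKM of at least 3 there. The day 10 libraries are part of this test, so this agreement is built in to some degree. The count rested on which times were used. Without day 6, 615 rose and 803 fell, 63 and 33 of them shared with the counts above, whereas with EBs of 24 h added 6 rose and 1 fell. Without day 14, 89 rose and 28 fell, of which 41 and 15 were shared with the counts above, and with limma in place of edgeR 42 and 20 were. Neural genes stood among those that fell. Pax6 (shared log2 change -3.97) and Tubb3 (-3.02) had the smallest p of the test, with an adjusted p of 0.0284 by edgeR, as had Sox1 (-3.32), and Wnt8b (-5.43) and Otx2 (-1.32) passed at adjusted p of 0.0360 and 0.0340 by edgeR. The 4 neural regulators that fell, of 22 tested, were Otx2, Pax6, Sox1 and Wnt8b. The cortical factors Fezf1 and Fezf2 and the neural RNA Rmst fell too, with shared log2 changes of -5.80, -5.20 and -5.09, as did Nhlh2, Stox2, Myb, the Wnt receptor Fzd3 (-1.85) and Ccnd1 (-1.54). The genes that rose included 8 of the 15 of basement membrane and parietal endoderm, with Snai1 (2.56), Lamc1 (1.86) and Lamb1 (2.20) at an adjusted p of 0.0284 by edgeR and Lama1 (3.24) at 0.0340, and 4 of 11 of gut and stomach (Aqp8, Gkn1, Gkn2 and Muc13). Tinagl1, Gm4980, Lpar3, Nxf7, 9930013L23Rik, Scube2, Tcf23 and Car12 were the others with the smallest p. No endoderm factor passed, although 10 of 18 were higher at an unadjusted p under 0.05 by edgeR. Over all 12378 genes tested, 1072 were higher at that limit. Gata4 had an adjusted p of 0.0593 by edgeR.

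Rspo2 (edgeR adjusted p of 0.0548, shared log2 change -6.05) and Zic1 (0.369, -3.58) did not pass this shared test. At day 6 Zic1 was higher in shSmyd5 (log2 fold 1.38). Whether the day 10 difference departed from that at 24 h, day 6 and day 14 was tested as an interaction with edgeR over the 8 EB libraries. Of 12268 genes, 0 passed (0%), 54 had an unadjusted p under 0.05, and DESeq2 and limma also called 0, with 104 and 88 genes at an unadjusted p under 0.05. The smallest unadjusted p belonged to Rspo2 (interaction log2 change -9.23), followed by Nes, the intermediate filament of neural progenitors (-1.998), and Ildr2 (-2.82), with Rps14, Ddit4, Wtip, Rpl18, Hba-a2, Tagln and Metrn after them, each with an edgeR adjusted p of 1. So no gene was shown to differ at day 10 by more than at the other times. In the other direction Nckap1l, Mpzl2, Zfp42, Zfp97, Dppa5a, Ccdc132, Sycp3, Mospd1, D7Ertd715e and Zfp518a had the smallest p.

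Day 10 folds were also compared with the course of the control. Of the 2039 genes at least 2-fold up from day 6 to day 14 in shLuc EBs, 216 (10.6%) were 2-fold higher and 233 (11.4%) 2-fold lower in shSmyd5 at day 10, with a median log2 fold of 0.04. Of the 591 at least 2-fold down, 12 (2.03%) were higher and 70 (11.8%) lower, with a median of -0.18. Among the 7946 between, 1.32% were higher and 4.86% lower. Genes that came up in the control were thus split in shSmyd5 between higher, such as Gkn2, and lower, such as Fabp7.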

How the data were processed

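RNA-Seq tables of 10 libraries were used, 1 for shLuc and 1 for shSmyd5 at each of 5 stages: ES cells and EBs of 24 h, day 6, day 10 and day 14. The authors deposited, for each transcript, a read count and an RPKM value, made by them from reads processed with CASAVA and Bowtie2 on the mm9 build (versions not given in the sources used here). The deposited tables of day 6, day 10 and day 14 carry in their names a further BED step for shSmyd5 that shLuc lacks, so an effect of that step cannot be told apart from the knockdown. The cDNA was double-stranded and strand is not known.

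For each gene symbol the transcript with the highest mean read count over the 10 libraries was kept (29257 transcripts, 22878 symbols, of which 4019 had more than 1). A gene was described where either day 10 library had its RPKM at 3 or more. Folds used a pseudocount of 0.1 on RPKM, which understates the change of low genes, and 95% intervals are exact binomial. With 1 library per condition no test of day 10 alone was made. Reads in genes ran from 3895537 to 43377815 over the 10 libraries, and 3 reads in a transcript of 2000 bases equal 0.0492 RPKM for shLuc and 0.0960 for shSmyd5 of day 10. Nothing in the labels names separate cultures, so p-values measure only the spread between these libraries, which may be technical.

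The edgeR quasi-likelihood test was run on counts, for genes whose mean RPKM was 1 or more, with Benjamini-Hochberg adjustment, for a knockdown difference shared by day 6, day 10 and day 14 (stage as a block, 6 libraries) and for an interaction of day 10 with the other EB times. DESeq2 and limma were alternatives. The trend on GC content and length was a spline with 6 knots. Gene coordinates came from GENCODE M1 on mm9 and promoters from RefSeq. The 43 lists hold 743 genes. Members and lists were chosen with earlier results of these data known. Named genes were Smyd5, Zic1, Rspo2 and other genes the study names, the 15 highest and 15 lowest folds at an RPKM of at least 10, up to 4 genes per list with the largest folds and the 10 smallest p in each direction of each test. Other genes named were chosen after their values were seen. Values of 2 genes that the rule would name are not reported here. Versions were R 4.3.3 with DESeq2 1.42.0, limma 3.58.1 and edgeR 4.0.16, and Python 3.11.15 with scipy 1.17.1, numpy 2.4.6, matplotlib 3.10.9, pandas 2.3.3 and scikit-learn 1.9.0.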

Additional observations from a re-analysis of the deposited data

Results flagged for a closer look

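Erythroid genes stood on opposite sides of 0 at day 10 and day 14. The 12 compared were those that reached an RPKM of 3 at day 10, 7 of them in shLuc only. Their median log2 fold was -1.25 at day 10, with 10 at least 1.5-fold lower and 0 higher. At day 14 it was 0.723, with 7 higher and 4 lower. Hbb-bh1 stood at 401 RPKM with shLuc and 177 with shSmyd5 at day 10, and 22.9 and 40.6 at day 14. The embryonic globin Hbb-y likewise had 39.0 and 21.4 at day 10 and 27.5 and 107 at day 14. This difference between the days was not tested over the list, and in the edgeR interaction test Hbb-bh1 did not pass (adjusted p of 1).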

How the results depend on the processing

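Of the recomputed values that answer a comparison, 103 stayed within their tolerance and 35 moved by more. The tolerance was the counting interval for gene folds, 1.5 times for counts and shares, and a fixed log2 difference for medians. Only the folds of Smyd5, Zic1 and Rspo2 could be labelled reversed, and none was. Counts and shares could not be labelled so. Single genes of the 2 tests kept their side of the threshold in 307 cases and lost it in 39. No gene passed the interaction test, so its genes had no pass to lose and the 307 say little about it. All 39 losses were of the shared test. They were 20 without the stage block, 12 with 24 h added, 5 with limma and 2 without day 14. The count of 2-fold genes (333 higher, 689 lower) follows from the filter by construction. It was 1174 lower at an RPKM of at least 1, 200 and 264 at 10, 205 and 316 with at least 3 in both libraries, and 715 and 1950 with no filter. GC-freed, 436 were lower. With an edgeR exact test at an assumed coefficient of variation of 0.2 and a false discovery rate of 0.001, 64 were higher and 130 lower, and at 0.4 the counts were 1 and 12, so they rest on the assumed value. The log2 fold of Zic1 was -4.51 with a pseudocount of 1. The log2 fold of Rspo2 at day 10, fitted against 0 reads and therefore set by the pseudocount, was -4.06 with 1 and -10.61 with 0.01, -7.25 with TMM or DESeq2 factors, -7.27 centred, -7.41 GC-freed and -7.30 with summed transcripts. TMM factors moved the median of all genes by 0.094. Lists of at least 5 genes with a median at least 1.5-fold lower numbered 12, but 5 at an RPKM of at least 10 and 5 with at least 3 in both libraries, where the higher ones went from 5 to 3. The median fold of genes that came up in the control was 0.20 at an RPKM of at least 10, and that of genes that went down was -0.33 from ES cells to day 14, and the cause was not tested. In the shared test (63 and 34 with edgeR), DESeq2 called 528 and 452, no filter gave 113 and 72, 24 h added gave 6 and 1, leaving out day 6 gave 615 and 803, leaving out day 14 gave 89 and 28, and without the stage block 0 and 0 passed by edgeR, with 556 at an unadjusted p under 0.05; the cause was not tested. In the interaction, 0 genes passed under every alternative run, and the smallest adjusted p was 0.0885 by edgeR without day 14. The stage block of the shared test pairs the 2 libraries of each stage. Within a stage, no paired analysis was possible because each condition had 1 library there. The shSmyd5 library of day 10 held fewer reads than shLuc, which limits its low values most.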

Other observations

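Over all genes described, 10.0% were at least 1.5-fold higher and 16.5% at least 1.5-fold lower at day 10, and the counts below are to be read against these shares. Of 20 genes of histone H4 lysine 20 and H3 lysine 9 methylation, 1 was at least 1.5-fold higher and 5 lower (median log2 fold -0.30, GC-freed -0.20). Trim28, a corepressor of retroelements, had an RPKM of 198 and 106 (-0.90), Suv420h2, a methyltransferase of the same histone residue as Smyd5, had 22.5 and 12.6 (-0.83), and the demethylase Kdm4c had 9.69 and 16.4 (0.75). Of 15 Polycomb subunits 4 were lower and 0 higher (median 0.08). Cell cycle genes were lower in 7 of 27 and higher in 1, the higher being the inhibitor Cdkn1a with 40.5 and 80.2 (0.98). Cytosolic ribosomal proteins were lower in 5 of 34 and higher in 0 (median -0.02), a share of the 34 below that of all genes, with Rps2 at 156 and 60.2 (-1.37).

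Genes of the unfolded protein response were higher in 5 of 16 and lower in 1 (median 0.34), with the chaperone Hsp90b1 at 265 and 433 (0.71) and Ddit4, an inhibitor of mTOR, at 109 and 55.4 (-0.98). Cholesterol synthesis genes were lower in 5 of 17 and higher in 1 (median -0.38), the higher being Insig1, which holds back sterol synthesis, with 38.7 and 127 (1.71). Imprinted genes were higher in 2 of 19 and lower in 4 (median -0.11), with the growth inhibitor Grb10 at 173 and 71.1 (-1.28). Of 9 trophoblast genes 3 were higher and 2 lower (median 0.14), and of 15 epithelial junction genes 6 were higher and 3 lower (median 0.46). Of 39 Hox genes 4 reached an RPKM of 3, with 2 higher and 1 lower.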
